A study of Drosophila melanogaster with 4 samples.

Results

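The chemoreceptor genes of Drosophila melanogaster were examined as a set that is expected to be silent in muscle. They were taken by symbol, as Or, Gr or Ir followed by digits and a letter, from the RefSeq gene table of genome release 6, which gave 186 of the 17684 genes on the main chromosome arms (60 Or, 60 Gr and 66 Ir genes, 7 of them pseudogenes). The study mapped accessible chromatin by ATAC-seq, where a transposase inserts adapters into open DNA, using nuclei of thoracic muscle enriched for flight muscle. The animals were pharate flies, formed but not yet emerged, 96 h into pupal development at 25 °C. The mutant (2 libraries) carried the allele Pgk[Delta.E2F] and was represented by 1 line, line 12; the control (2 libraries) was w[1118], and the mutant carried w[1118] too. Pgk encodes phosphoglycerate kinase, a glycolytic enzyme, and the series asks about its regulation by the transcription factor E2F. Each library pooled at least 40 animals, and the labels do not state their sex or whether the libraries came from separate days. P-values therefore measure the spread between these libraries, which may be technical.

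Odorant receptors (Or) are membrane channels of olfactory neurons in the antenna and maxillary palp, where each receptor works with the co-receptor Orco. Gustatory receptors (Gr) are related channels tuned to sugars, bitter compounds or carbon dioxide. Most of them are known from taste neurons of the mouthparts, legs and wing margin. Ionotropic receptors (Ir) descend from glutamate receptors and sense acids, amines, temperature and humidity, mostly together with the co-receptors Ir8a, Ir25a or Ir76b. Most of these genes are known from sensory neurons.

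A gene was called in a library when a peak of the authors' list shared at least 1 bp with the gene span extended by 500 bp on each side. The lists held 25528 and 25985 main-arm peaks in mutants 1 and 2, against 29341 and 29923 in controls 1 and 2. The most frequent background at the summits, recovered from the deposited values and read as relative depth, was 4.62 and 5.26 fragments in the mutants, against 7.44 and 7.61 in the controls. The word fragment names the unit piled up here and below, and the lists do not state whether it was a fragment or a read. All 16 genes of a flight muscle list, among them Act88F, fln and TpnC4, were called in every library. Their median span was 11329.5 bp, against 1710 bp for all genes. Lists of glial and tracheal genes were also called in full in some libraries, so these calls do not check the tissue label. In nuclei pooled from a tissue, a region open in few nuclei and a region weakly open in many cannot be told apart.

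Few chemoreceptor genes carried a peak. Mutant 1 had a call at 37 of them (19.9%), where 56.0% of all genes were called, and mutant 2 at 25 (13.4%), where 55.6% of all genes were called. Control 1 had a call at 31 (16.7%; all genes 60.1%) and control 2 at 30 (16.1%; all genes 61.3%). The mean share was 16.5% of the chemoreceptor genes and 58.7% of the other genes, a difference of -42.2 ± 3.99 percentage points (SD, n = 4 libraries) that went the same way in 4 of 4 libraries (p = 0.125 by an exact two-sided sign-flip test, which cannot go lower with 4 libraries). Over the 4 lists, 57 members had a peak in any library (30.6%; all genes 71.2%), 14 in all 4 libraries (7.53%; all genes 44.6%), 27 in 1 library (14.5%; all genes 8.84%), and 129 had none anywhere (69.4%; all genes 28.8%). Peaks covered 1.37% and 1.19% of the base pairs in the members' windows in mutants 1 and 2 and 1.39% and 1.52% in controls 1 and 2. Over the windows of all genes the covered share was 3.18% and 3.11% in the mutants, against 4.05% and 4.35% in the controls.

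**Figure D1:**
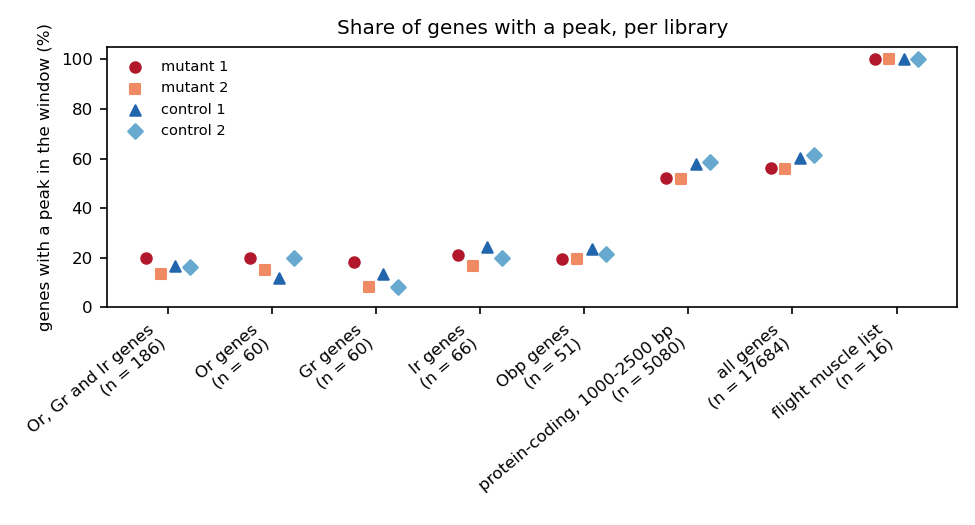
Share of genes with a peak in the gene span plus 500 bp on each side (vertical axis, percent), with 1 point per library (circle, mutant 1; square, mutant 2; triangle, control 1; diamond, control 2). The chemoreceptor families lie between 8.33% and 24.2%, near the odorant-binding protein (Obp) genes and below genes of like length, while the flight muscle list is at 100%.

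In single libraries the shares of genes of like length lay somewhat below those of all genes. In all 4 libraries 36.9% of the genes of like length were called, against 44.6% of all genes. The members had a median span of 1678.5 bp. Of the 5080 protein-coding genes of 1000 to 2500 bp, 52.2% and 51.9% were called in mutants 1 and 2 and 58.0% and 58.8% in controls 1 and 2. Of the 154 members in that range, 28 and 17 were called in the mutants and 20 in each control. Of the 66 Ir genes, 14 and 11 were called in mutants 1 and 2 and 16 and 13 in controls 1 and 2. Of the 60 Or genes these numbers were 12 and 9 in the mutants, against 7 and 12 in the controls, and of the 60 Gr genes 11 and 5 in the mutants, against 8 and 5 in the controls. Of the 7 pseudogenes, Ir51a alone had a call, in mutant 1.

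The annotated ends of the chemoreceptor genes, the promoter end among them, were nearly free of peaks. The gene table gives no strand, so both ends were counted. A peak lay across the end base of 1 member, Gr93a, a bitter taste receptor gene, in mutant 1 alone, whereas 32.0% of all genes had such a peak in at least 1 library. Within 100 bp of an end, 5 and 3 members had a peak in mutants 1 and 2 (2.69% and 1.61%; all genes 23.8% and 32.1%), and 3 and 2 in controls 1 and 2 (1.61% and 1.08%; all genes 38.7% and 34.4%). Over the 4 libraries these were 8 genes (4.30%; all genes 42.3%), namely Ir25a, Ir31a, Or42b, Gr59f, Ir75b, Gr77a, Gr93a and Gr94a, and Ir25a alone was among them in all 4 libraries (0.538%; all genes 21.6%). Without mutant 1 the 8 became 4. Of the protein-coding genes of 1000 to 2500 bp, 39.4% had a peak within 100 bp of an end in any library and 16.4% in all 4. This distance was chosen after the profile around the ends had been seen.

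**Figure D2:**
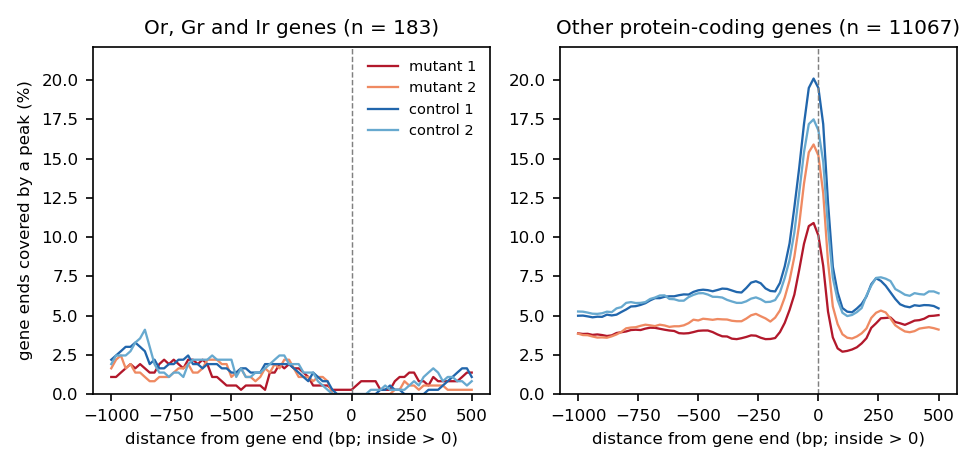
Percent of gene ends covered by a peak (vertical axis) against distance from the annotated gene end in bp (horizontal axis, positive inside the gene), 1 line per library, for the 183 chemoreceptor genes (left) and the 11067 other protein-coding genes (right) that are at least 1000 bp long. Other genes peak 20 bp outside the end, at 10.9% and 15.9% in mutants 1 and 2 and 20.1% and 17.5% in controls 1 and 2, and chemoreceptor genes show no such peak.

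Regions shared by the libraries lay on neighbouring genes and in Ir41a more than in the other chemoreceptor genes. Peaks of the 4 lists that touched were joined into 118 merged regions in the members' windows. Of these, 35 belonged to Ir41a, an antennal receptor gene for amines, whose annotated span of 104437 bp (2R:4917519-5021955) is far longer than that of any other member. Outside Ir41a there were 83 regions. All 4 libraries had a peak in 17 of them (20.5%; all merged regions 30.3%) and 1 library in 47 (all merged regions 37.0%). Of the 17 shared regions, 11 overlapped a neighbouring gene and no chemoreceptor gene, 4 lay in a chemoreceptor gene and 2 lay in no gene. With Ir41a there were 26 shared regions, of which 13 lay in the chemoreceptor gene alone and 11 on a neighbour alone. Of the 47 regions of 1 library, 27 lay in a chemoreceptor gene alone, 14 overlapped both a chemoreceptor and another gene, and 4 a neighbour alone. In 4 of the 83 regions some libraries' peaks stopped short of the window; counting only peaks that reached it left 15 shared regions, 9 of them on a neighbour alone. When the flank was dropped and only the gene span counted, the genes called in all 4 libraries numbered 3, namely Or19a, Ir41a and Ir93a (1.61%; all genes 34.3%), and 39 had a peak in any library (21.0%; all genes 61.2%). For protein-coding genes of 1000 to 2500 bp these span shares were 23.8% in all 4 libraries and 60.9% in any.

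**Figure D3:**
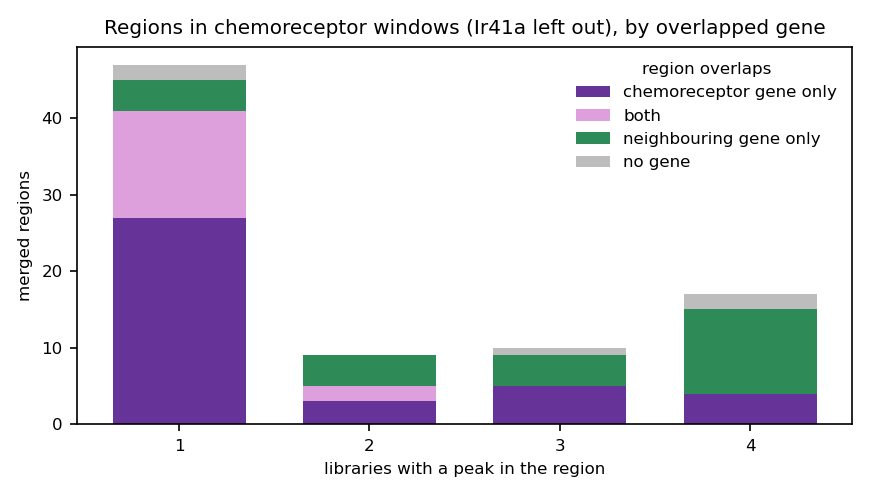
Number of merged regions (vertical axis) by the number of libraries with a peak in them (horizontal axis), coloured by the gene they overlap, for the windows of all chemoreceptor genes except Ir41a. Of the 17 regions with a peak in all 4 libraries 11 overlap a neighbouring gene alone, and of the 47 with a peak in 1 library 27 lie in the chemoreceptor gene alone.

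Peak strength was split by overlap with any other gene, so peaks on both a chemoreceptor and another gene count with the neighbours. Ranks are the position of a peak in its own list by −log10 p, as a top percentage, and the fold enrichments are the authors' values against each library's background. The window peaks that overlapped a neighbouring gene had a median rank of 60.6% and 22.0% in mutants 1 and 2 and of 24.5% and 26.6% in controls 1 and 2 (Ir41a left out). Those that overlapped no other gene had medians of 71.7% and 63.0% in the mutants, against 88.7% and 83.0% in the controls. In mutant 1 these medians lay closest together. By merged region, the median of the mean ranks was 32.5% for the 23 regions on a neighbour alone. It was 78.9% for the 39 in a chemoreceptor gene alone, 82.6% for the 16 on both and 70.5% for the 5 in no gene. Higher strength therefore went with regions on a neighbour alone.

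**Figure D4:**
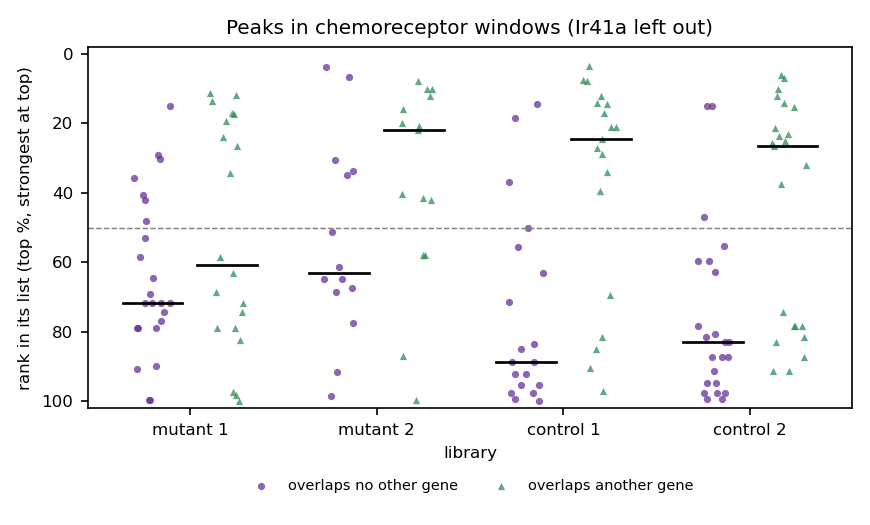
Rank of each peak in a chemoreceptor window within its own list (vertical axis, top percent by −log10 p, strongest at the top; dashed line at 50) in the 4 libraries, Ir41a left out. Circles are peaks that overlap no other gene and triangles peaks that overlap another gene; black bars are medians, which are lower in the list for circles in every library.

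Whether a neighbour lay in the window went with the calls. The windows of 91 members held part of a gene that is no member, and 24 and 21 of these were called in mutants 1 and 2 and 23 and 22 in controls 1 and 2. Of the 95 members without such a neighbour, 13 and 4 were called in the mutants and 8 in each control, and Gr28a and Ir41a were called in all 4 libraries (2 genes, 2.11%). The same direction was seen over all genes. There any other gene counted as a neighbour, whereas for members only genes that are no member did. A neighbour lay in the windows of 14600 of the 17684 genes, and 3084 had none. The part of this in the lower share of called members was not tested. Windows that held another gene were called in 59.6% and 60.0% of cases in mutants 1 and 2 and 64.9% and 65.2% in controls 1 and 2, and 48.5% of them in all 4 libraries. Windows with no other gene in them were called in 39.0% and 34.8% of cases in the mutants, against 37.3% and 42.9% in the controls, and 26.1% of them were called in all 4 libraries.

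The strongest of the neighbour regions had high ranks in every library. The region 2R:10142258-10142572, within 500 bp of the palp receptor gene Or46a and inside CG18011, had folds of 8.71 and 10.7 in mutants 1 and 2 and 20.4 and 14.4 in controls 1 and 2. Near Ir48c the region 2R:11789940-11790375 lay in ths, which encodes an FGF ligand, with folds of 8.0 and 11.7 in the mutants, against 15.4 and 15.0 in the controls. Its summits and most of its width lay outside the Ir48c window, and Ir48c had 0 calls when the summit or 50% of the peak had to lie inside. Near Ir68b the region 3L:12125110-12125263 lay in yps, a Y-box RNA-binding protein gene, with folds of 6.99 and 10.9 in the mutants, against 12.0 and 8.70 in the controls. These 3 regions ranked from the top 7.9% to 13.4% in the mutant lists and from 3.51% to 12.1% in the control lists. Near Gr97a the region 3R:26966838-26966964 lay in CG5521, with a mean rank of 13.9% over the 4 libraries. Near Ir60b, a receptor gene of pharyngeal taste neurons, the region 2R:24514943-24515186 lay in Letm1, a gene for a mitochondrial protein, and its peak reached the Ir60b window in control 2 alone. The calls of Ir60b in the other libraries came from weaker peaks, ranked at 76.9% in mutant 1, 42.0% in mutant 2 and 28.8% in control 1.

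Of the members with a region of their own in all 4 libraries, Ir93a had the strongest. Ir93a, a receptor for temperature and humidity, spans 3R:20851709-20859945. It had 4 peaks in the window in each mutant, and 4 and 5 in controls 1 and 2. The region 3R:20854769-20855224, well inside the gene and 3287.5 bp from its nearer end, had folds of 6.23 and 11.2 in mutants 1 and 2 and 7.61 and 7.87 in controls 1 and 2, and ranked in the top 15.0% and 3.79% of the mutant lists and the top 18.3% and 15.1% of the control lists. At its summit 51 and 134 fragments piled up in the mutants, against 99 and 94 in the controls. By fold and fragments mutant 2 lay above both controls and mutant 1 below both. The region 3R:20855862-20856081 was weaker, with folds of 3.98 and 4.52 in the mutants, against 3.96 and 3.82 in the controls, and 3R:20856828-20856960 had 4.75 and 3.65 in the mutants, against 2.69 and 2.67 in the controls. The last was higher in both mutants than in both controls, also by rank, with 29.2% and 51.3% in the mutants against 83.6% and 81.4% in the controls. It was singled out after the values had been seen and was not tested.

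Ir41a carried 27 and 19 peaks in mutants 1 and 2 and 22 and 23 in controls 1 and 2. Its 35 merged regions all lay in its own span and in no other gene, 9 of them with a peak in all 4 libraries and 12 in 1. The strongest of the shared ones by mean rank, 2R:4990790-4991515, had folds of 4.62 and 5.11 in the mutants, against 6.01 and 4.77 in the controls. It ranked at 23.2% and 24.2% in the mutant lists and 21.3% and 27.1% in the control lists, and the median over the 35 regions was 65.5%. Or19a, a receptor for citrus terpenes on X, had 1 region, X:20142569-20142777, with folds of 4.27 and 3.83 in the mutants, against 2.96 and 3.6 in the controls, on 23 fragments in each mutant and 24 and 30 in the controls. Or19b, of the same span length of 1370 bp, was called in both mutants and control 2. The pair are near-identical copies, and the lists do not say how reads that match both were assigned.

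Gr28a, of the Gr28 subfamily of broadly expressed taste receptors, had the clearest region that lay in no gene. The region 2L:7452244-7452372, with its midpoint 212 bp from the end of Gr28a and 1000 bp from the next gene that is no member, santa-maria, had folds of 4.62 and 13.9 in mutants 1 and 2 and 11.4 and 9.52 in controls 1 and 2. It ranked in the top 40.7% and 6.55% of the mutant lists and the top 14.5% and 15.1% of the control lists, so that mutant 1 was lowest and mutant 2 highest. Gr28b, the next gene of the pair, had no call in any library. The other region in no gene, 3L:19803535-19803684 near the amine receptor gene Ir76a, lay 54 bp from TORIP and had folds of 3.42 and 6.14 in the mutants, against 4.03 and 3.75 in the controls.

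The 3 co-receptors were each called in at least 3 libraries. Ir25a, the co-receptor of most Ir complexes, had 4 and 3 peaks in mutants 1 and 2 and 2 and 5 in controls 1 and 2, all of them in the neighbours Fnta and tank and none in its own span. Ir8a, the co-receptor for acid sensing, had 1 peak in each library, all in the neighbour CG12121, with folds of 4.84 and 4.31 in the mutants, against 8.88 and 5.57 in the controls. Ir76b, a co-receptor in taste and amine sensing, had peaks inside its own span, 2 and 0 in the mutants and 2 in each control, with a best fold of 3.56 in mutant 1 and of 2.72 and 2.90 in the controls. The best of them ranked at 71.7% in mutant 1 and at 92.2% and 83.0% in controls 1 and 2.

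Among the temperature and humidity receptors other than Ir93a, the cool receptor gene Ir21a was called in mutant 2 and both controls, through a region in l(2)gl, a cell polarity gene, and Ir68a, for moist air, in no library. Of the acid and amine receptors, Ir64a had a peak in control 1 and Ir84a and Ir92a had none. Of the carbon dioxide receptor pair, Gr63a was called in all 4 libraries through a region in Lamtor4, a gene of lysosomal TOR signalling, and Gr21a had 1 peak in mutant 1, ranked at 90.8%.

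Of the 9 sugar receptor genes (Gr5a, Gr43a, Gr61a and Gr64a to Gr64f) and the 5 bitter receptor genes listed by name (Gr32a, Gr33a, Gr39a, Gr66a and Gr89a), 0 were called in any library. With a flank of 1000 bp Gr5a was called in 4 libraries and Gr32a and Gr66a in 1 each. Of the 4 pheromone receptor genes, Or47b had 1 peak in control 2, ranked at 87.2%, and Or65a, Or67d and Or88a had none. Of the 7 palp receptor genes, Or46a was called in all 4 libraries, Or59c in mutant 1 and control 2, Or33c in mutant 2, and the other 4 nowhere. Of the 6 food odour receptor genes, Or42b had calls in both controls, Or49b in mutant 2 and Or92a in control 1, while Or22a, Or56a and Or85a had none.

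After overlapping windows were joined, they formed 135 blocks, of which 53 had a peak in any library and 14 in all 4. Tandem clusters were set beside these: 14 blocks held at least 3 members and 50 members in all, and 6 of them had a peak in any library and 1 in all 4, the block of Ir60b. The 6 with a peak were the blocks of Or33c, Ir56b, Ir60b, Ir75b, Gr98d and Gr10a. Among those with no peak in any library were the blocks of Gr64a to Gr64f, Gr22a to Gr22d, Ir52a to Ir52d and Ir7c to Ir7g. Windows were not joined over all genes, so no such share stands beside these counts. Members that share a block can share a peak, and Gr10a and Or10a have the same annotated span, so their single call in mutant 1 is 1 peak.

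**Figure D5:**
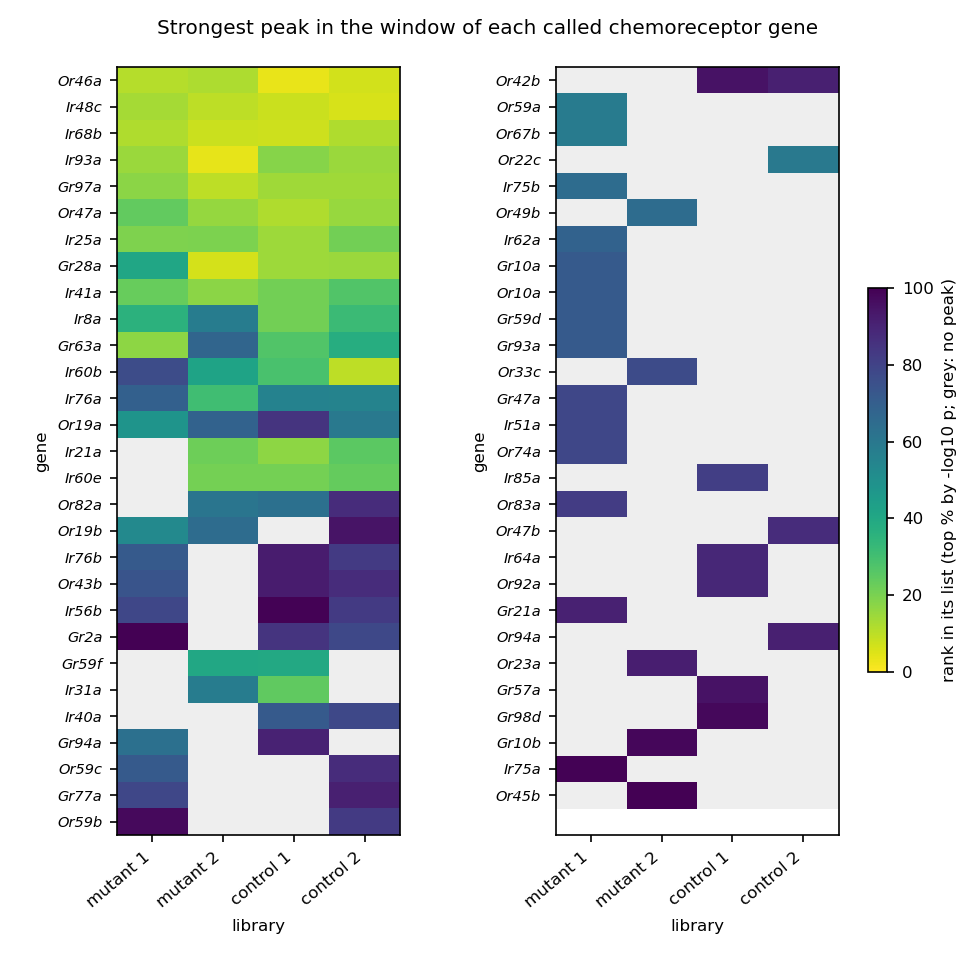
The 57 chemoreceptor genes with a peak in at least 1 library (rows), ordered by the number of libraries with a call and then by mean rank, against the 4 libraries (columns). Colour gives the rank of the strongest peak in the gene's window within its list, as a top percentage by −log10 p on a linear scale from 0 to 100, and grey marks no peak; the 14 genes called in all 4 libraries include the strongest ranks, and the 27 called in 1 library rank at 58.4% or lower in their lists.

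Between the genotypes the number of called members did not differ beyond the spread of the replicates. The mutants had 31.0 ± 8.49 called members and the controls 30.5 ± 0.707 (SD, n = 2 each), a difference of 0.5 (exact permutation test, two-sided, p = 1; 2 against 2 libraries cannot go below 0.333). Window peaks numbered 71 and 48 in mutants 1 and 2 and 60 and 69 in controls 1 and 2, with a difference of -5.0 in the means (exact permutation p = 1), or -5.5 without Ir41a. The share of the main-arm list that they made up was 0.278% and 0.185% in the mutants, against 0.204% and 0.231% in the controls, a difference of 0.0139 percentage points (exact permutation p = 1). Members with a peak outside all other genes numbered 21 and 12 in the mutants and 15 in each control, a difference of 1.5 (exact permutation p = 1). The covered share of the windows was 1.28% ± 0.126 in the mutants and 1.45% ± 0.0958 in the controls (SD, n = 2 each), a difference of -0.172 points in which the groups did not overlap (exact permutation p = 0.333). Without Ir41a that difference was -0.127 and the groups overlapped (p = 0.667, exact permutation test). Over the windows of all genes the groups did not overlap either, with 3.18% and 3.11% in the mutants, against 4.05% and 4.35% in the controls. With lists of equal length the difference over the members' windows changed sign.

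No member was called in both mutants and in neither control, where 0.707% of all genes were. The reverse was found for 2 members (1.08%; all genes 2.31%). Ir40a, the receptor for dry air, had a region in its span, 2L:22205048-22205272, with no peak in either mutant and folds of 3.44 and 3.02 on 28 and 25 fragments in controls 1 and 2. Or42b, a receptor for fruit esters, had the region 2R:5798343-5798445, again with no peak in either mutant and folds of 2.49 and 2.67 on 20 and 22 fragments in the controls; control 2's peak alone came within 100 bp of its end. Both were weak, with ranks of 71.5% and 78.4% for Ir40a and of 97.7% and 91.3% for Or42b, and the mutant lists were the shorter ones with the lower background. With lists of equal length (25528 peaks) Or42b was no longer called and Ir40a still was, and Or19b was called in both mutants alone.

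Calls made in 1 library came most often from mutant 1, as they did over all genes. Of the 57 called members, 14 were called there alone (24.6%, of all called genes 4.58%) and 5 in mutant 2 alone (8.77%, of all called genes 1.43%). Control 1 alone had 5 (8.77%, of all called genes 3.36%) and control 2 alone 3 (5.26%, of all called genes 3.05%). Of all genes, 3.26% and 1.02% were called in mutant 1 alone and mutant 2 alone, and 2.39% and 2.17% in control 1 alone and control 2 alone. Inside the gene spans, 26 members had a peak in mutant 1 and 9 in mutant 2, against 14 in each control. Of all genes, 46.3% and 44.7% had a peak in their span in the mutants, against 49.2% and 50.8% in the controls. Outside Ir41a, the 20 regions of mutant 1 alone rested on 14 to 21 fragments at the summit, with a median fold of 3.42, and the 5 of mutant 2 alone on 15 to 24. The 10 of control 1 alone rested on 20 to 31 fragments and the 12 of control 2 alone on 19 to 30. Their best rank was 58.4% in mutant 1, 64.8% in mutant 2, 69.5% in control 1 and 59.5% in control 2. Mutant 1 also had the lowest background, and its part in these calls was not tested. Without mutant 1 the difference in called members was -5.5 and without mutant 2 it was 6.5, so the sign differed with the mutant left out.

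Among other chemosensory genes, the Obp genes were called less often than all genes, in each library and in all 4 libraries (all genes 44.6%). A list of 12 further genes lay nearer to all genes. Of 51 Obp genes, which encode odorant-binding proteins, 10 were called in each mutant and 12 and 11 in controls 1 and 2. These shares were 19.6% to 23.5%, against 55.6% to 61.3% of all genes, at a median Obp span of 788 bp. In all 4 libraries 6 were called (11.8%), among them Obp28a, Obp44a and Obp83g. Of 12 other genes listed by name, 4 were called in all 4 libraries (33.3%). These were lush, an odorant-binding protein gene, ppk25, a channel gene of pheromone sensing, and acj6 and pdm3, transcription factor genes of olfactory neurons. The last 2 have long spans, of 28826 and 68791 bp. Orco had 1 peak in mutant 1 and 1 in control 2, and none in mutant 2 and control 1. The gene lz had 2 and 0 peaks in mutants 1 and 2 and 2 and 3 in controls 1 and 2, and ppk29 had 1 in mutant 1 alone. Snmp1, Snmp2, ppk23, ato and amos had no peak.

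Marker genes of other cells the dissection could hold were counted in the same way, and their calls are read beside the 55.6% to 61.3% of all genes called in a library. Of 11 neuron genes measured, 11 and 8 were called in mutants 1 and 2 and 10 and 11 in controls 1 and 2. The genes elav, para and brp were called in every library. Syt1, nSyb and VGlut had no peak in mutant 2, and Syt1 had none in control 1 either. The median span of the neuron genes was 27653 bp. Of 8 sensory neuron genes, 4 and 1 were called in the mutants, against 1 and 3 in the controls. Of these lush had a peak in every library, and ato, amos, Snmp1 and nan had no peak anywhere. Glial genes were called in 6 and 5 of 6 cases in the mutants and 6 in each control. Tracheal genes were called in 5 of 5 cases in each mutant and in 4 and 5 in the controls. Haemocyte genes were called in 2 and 1 of 4 cases in the mutants and 1 in each control. Among them srp had 8 and 11 peaks in the mutants and 8 in each control, He had 1 in mutant 1 alone, and Hml and NimC1 had none. Fat body genes were called in 3 and 1 of 4 in the mutants, against 1 and 2 in the controls. The part of such cells in the calls at chemoreceptor genes was not tested.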

How the data were processed

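Each of the 4 libraries had its own deposited peak list. The submitters' processing notes name bcl2fastq 2.20, cutadapt 2.3, Bowtie2 2.4.1, Picard, MACS2 2.2.7.1, MultiQC 1.5 and the build BDGP6, with no settings. Treatment of duplicates and any shift for the transposase cut are not given in the sources used here. In the deposited lists each peak has a fold enrichment (a ratio), −log10 p and −log10 q against its library's own background, all as the authors' caller gave them, and the lowest −log10 q lies just above 2. These values were used to describe peaks and to rank them within their own list, and the deposited score was not used.

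Genes came from the RefSeq table of assembly Release 6 plus ISO1 MT, which gives no strand or exons, and no sequence was used. Positions are counted from 1. Peak intervals on 2L, 2R, 3L, 3R, 4 and X were compared with gene windows in Python 3.11.15 (numpy 2.4.6, pandas 2.3.3, scipy 1.17.1). Summit pileup and background were solved from fold and −log10 p (up to 250, tolerance 0.001) with a Poisson tail and a fold of pileup plus 1 over background plus 1, in 98.7% to 99.8% of peaks; read depth itself is not stated in the lists, and these figures cover counting only. Counting was tested on simulated data with 0 wrong windows of 2000 per library. Genotypes were compared by exact permutation and libraries by exact sign flips; genes are not replicates and were not tested over. Named genes were members called in both libraries of 1 genotype only, members with a region of their own in all 4 libraries, the 5 best ranked with a neighbour's region, and lists written by role. The members and lists were chosen with earlier results of these data known. Of the listed marker genes, Cpx matched no symbol.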

Additional observations from a re-analysis of the deposited data

How the results depend on the processing

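The difference between chemoreceptor and other genes stayed between -39.7 and -47.9 percentage points in every alternative tried. It was -39.9 for all 186 members, of any length, against the other protein-coding genes of 1000 to 2500 bp. That setting, leaving out Ir41a and the counts within 100 bp of a gene end were added with the results known. Of 120 alternative values, 93 kept their direction or lay within 1.5 times the count. No test here could reach the threshold of 0.05 with so few libraries, so no value could change its side of it. The genotype difference in called members, 0.5, was -2.5 with a flank of 1000 bp and -0.5 with overlapping windows joined; leaving out 1 library it ranged from -5.5 to 6.5, with 0 without control 2. The difference in window peaks, -5.0, was 1.5 with −log10 q of at least 5, 10.5 at equal list length and 0 with no flank, and ranged from -16.5 to 6.5 with 1 library left out. The covered share, -0.172, was 0.0629 at equal length and ranged from -0.261 to -0.0831. Members with a peak outside other genes ranged from -3.0 to 6.0, and the share of the list from -0.0328 to 0.0606. Members called in all 4 libraries numbered 3 with no flank and 23 with 1000 bp, where Gr5a, Or71a, Or92a and Ir21a were among them, and 14 to 18 with 1 library left out. Members called in the mutants alone numbered 1 with −log10 q of at least 5 and at equal length (Or19b in both), 2 with 1000 bp (Gr10a and Or10a) and 0 to 14 with 1 library left out; those called in the controls alone 1 with −log10 q of at least 5 and at equal length, and 5 to 7. Within 100 bp of a gene end 5 members remained at −log10 q of at least 5, and 4 to 8 with 1 library left out. The causes were not tested, except that a genotype with 1 library left admits all of its calls. A replicate block changed no call: pairing equal numbers gave the same differences, such as 0.5 called members (exact sign-flip test, p = 1; 2 pairs cannot go below 0.5). Over all genes' calls the replicate differences of controls and mutants correlated at -0.132, so the numbers were not taken as pairs; crossing them, also added with the results known, again gave 0 differences past the threshold, which 2 pairs cannot reach.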

Other observations

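By chromosome arm, the share of chemoreceptor genes with a peak in any library was 29.0% of 31 on 2L (all genes 66.4%), 38.5% of 52 on 2R (73.2%), 31.4% of 35 on 3L (70.5%), 23.3% of 43 on 3R (72.6%) and 28.0% of 25 on X (73.5%); no member lay on chromosome 4. Ir56b on 2R, in a block with Ir56c and Ir56d, had 2 and 0 peaks inside its span in mutants 1 and 2 and 1 and 3 in controls 1 and 2, at best folds of 3.38 in mutant 1 and of 2.37 and 2.90 in the controls. Or22c, a receptor gene of the larval nose, had 3 peaks inside its span in control 2 and none in the other libraries. Both were chosen after their values were seen.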
